A study of Mus musculus with 7 samples.

Results

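The genes described here are 33 cell cycle and DNA replication genes, chosen by symbol from the 30899 genes of the tables, and all 33 were found in every table. Of these, 12 were grouped here under DNA replication and 21 under mitosis. They were read in 7 bulk RNA sequencing libraries of primary endothelial cells taken from mouse skeletal muscle with beads and lysed without culture. Of the libraries, 4 came from mice labelled as knockout for GLUT1 in the endothelium and 3 from mice labelled wild type, with no treatment in either group. GLUT1, encoded by Slc2a1, carries glucose into endothelial cells. The Cre driver, the floxed exons, the strain, and the age and sex of the mice are not given in the sources used here, nor whether each library is 1 animal, so the p-values cover the spread among the 7 libraries alone. Comparing the genotypes asks how loss of endothelial GLUT1 bears on muscle metabolism. The members describe transcripts of the proliferation programme in each labelled group, and other cells in the preparation can carry these transcripts too.

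A cell that divides first licenses its replication origins. In G1 phase, Cdc6 and Cdt1 load the Mcm2 to Mcm7 helicase onto DNA, and in S phase the helicase opens the strands, with Pcna as the clamp that holds the polymerases. Cyclin A and cyclin B with Cdk1 then drive mitosis, in which kinesins, Aurora kinases and Plk1 build the spindle and the checkpoint proteins hold back Cdc20 until every chromosome is attached. Most endothelial cells of adult muscle are quiescent, and transcripts of mitosis genes are made mainly in late S and G2 phases, so in such tissue a few cycling cells can supply most of them. E2F factors act on the promoters of many replication genes, and the DREAM and B-Myb complexes act on many mitosis genes through a cell cycle homology region, or CHR.

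The promoters of 4 members are shown because Mcm2 and Mki67 were members that rose, while Cdc20 and Kif4 were members with groups that did not overlap, in opposite directions, without passing the test. The sequences are from RefSeq on build GRCm38.p6, an older build than the GRCm39 of the submitters' processing notes, and run from 250 bases before to 30 bases after the annotated start. Capitals mark the motifs CCAAT, the CHR letters TTTGAA and the E2F core (written TTCCCGC or else TTGGCGC or else TTCGCGC or else TTGCCGC), searched on both strands.
Mcm2 (chr6:88898751-88899030, minus strand): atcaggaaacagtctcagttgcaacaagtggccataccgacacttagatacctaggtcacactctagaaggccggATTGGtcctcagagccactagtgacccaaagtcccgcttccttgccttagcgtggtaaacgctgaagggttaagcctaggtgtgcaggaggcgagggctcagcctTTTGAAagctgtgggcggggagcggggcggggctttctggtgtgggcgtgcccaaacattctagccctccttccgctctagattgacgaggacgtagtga
Mki67 (chr7:135716350-135716629, minus strand): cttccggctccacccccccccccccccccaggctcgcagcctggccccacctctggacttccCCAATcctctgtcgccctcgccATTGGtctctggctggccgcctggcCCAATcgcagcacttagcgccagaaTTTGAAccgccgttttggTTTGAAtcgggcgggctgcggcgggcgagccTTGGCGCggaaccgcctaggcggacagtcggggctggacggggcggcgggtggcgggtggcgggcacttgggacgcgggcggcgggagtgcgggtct
Cdc20 (chr4:118437314-118437593, minus strand): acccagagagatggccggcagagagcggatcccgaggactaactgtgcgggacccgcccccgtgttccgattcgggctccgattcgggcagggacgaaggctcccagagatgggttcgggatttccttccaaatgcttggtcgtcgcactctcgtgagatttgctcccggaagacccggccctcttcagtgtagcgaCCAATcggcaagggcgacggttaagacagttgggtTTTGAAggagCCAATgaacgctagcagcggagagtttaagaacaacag
Kif4 (chrX:100625815-100626094, plus strand): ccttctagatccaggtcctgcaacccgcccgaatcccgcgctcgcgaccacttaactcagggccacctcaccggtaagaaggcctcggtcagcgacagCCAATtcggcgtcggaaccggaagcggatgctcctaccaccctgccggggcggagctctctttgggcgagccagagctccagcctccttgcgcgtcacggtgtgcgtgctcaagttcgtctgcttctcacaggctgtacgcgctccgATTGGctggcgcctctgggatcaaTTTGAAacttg
All 4 windows held a CCAAT box and the CHR letters, including those of Cdc20 and Kif4, whose estimates went in opposite directions. Of these 4, Mki67 held an E2F core, and it held the CHR letters at 2 places.

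A promoter window was found for 28 of the 33 members, and not for Mcm4, Ccna2, Aurkb, Kif20a or Tpx2. The CHR letters were in 1 of 11 replication promoters (9.09%) and in 9 of 17 mitosis promoters (52.9%), against 19.5% of the promoters of 27025 genes. An E2F core was in 7 of 11 replication promoters (63.6%) and in 3 of 17 mitosis promoters (17.6%), against 10.1% of all. The CCAAT box was in 8 replication promoters (72.7%) and 15 mitosis promoters (88.2%), against 39.7% of all. The replication and mitosis members thus differed in the letters of their promoters, with the E2F core more frequent in replication members and the CHR more frequent in mitosis members. A match of letters is a description of the window and not a binding site.

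Of the libraries as a whole, Slc2a1 was not called lower under the knockout label, at 953, 1435, 824 and 1087 normalised counts in knockout-labelled libraries, against 1032, 1083 and 1266 in wild type (log2 fold change -0.09, SE 0.18, 95% interval -0.47 to 0.28, adjusted p = 0.738 in limma). Directions therefore rest on the labels, and the group is called knockout-labelled throughout. Endothelial markers were abundant, with 10 of 10 passing the filter and sums of 143461 to 168887 in knockout-labelled libraries and 116148 to 150016 in wild type. Emcn was called higher (log2 fold change 0.51, SE 0.16) and Egfl7 lower (-0.47, SE 0.13), and the rest of this list was not called. The groups also differed in depth and composition. The totals of normalised counts were 1.46e+07 to 1.57e+07 in knockout-labelled libraries and 1.19e+07 to 1.34e+07 in wild type, without overlap. The estimated reads were 11260179 to 14156874 and 14736938 to 18020318, and olfactory and vomeronasal receptor genes took 0.0446% to 0.0715% and 0.111% to 0.251% of the total, in knockout-labelled and wild-type libraries in that order. A normalised count of 1.03 to 1.4 in knockout-labelled libraries, and of 0.658 to 0.910 in wild type, stood for about 1 read, so a gene at 10 rested on few reads.

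Across the 31 members tested, 3 rose, 0 fell and 28 did not pass the test. The 3 were the helicase subunit Mcm2, cyclin A2 and the proliferation marker Mki67. The test was limma on log2 of the normalised count plus 1, over genes whose mean reached 10, and a gene was called where its Benjamini-Hochberg p, adjusted over the 16931 genes tested, was under 0.05. Among all tested genes 5.98% rose and 5.53% fell, and 9.68% of the tested members rose and none fell. The share of members that rose was thus near that over all tested genes, which are not matched to the members in level. At a mean of 10 to 100, with 21 members, 0.794% of all tested genes rose, and at 100 to 1000, with 10 members, 7.19% rose. These classes can hold genes that reached the filter through 1 group alone, which limits the comparison. At an unadjusted p under 0.05, 8 members were higher and 1 was lower in limma. The median log2 fold change was 0.31 over the members and 0.02 over all tested genes, with 21 estimates above 0 and 10 below. The 2 members under the filter were Bub1 and Aurkb, and all 31 others had a mean of at least 10 in each group, so no member was tested through 1 group alone. In bulk RNA, more cycling cells and more transcript per cell cannot be told apart.

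**Figure D1:**
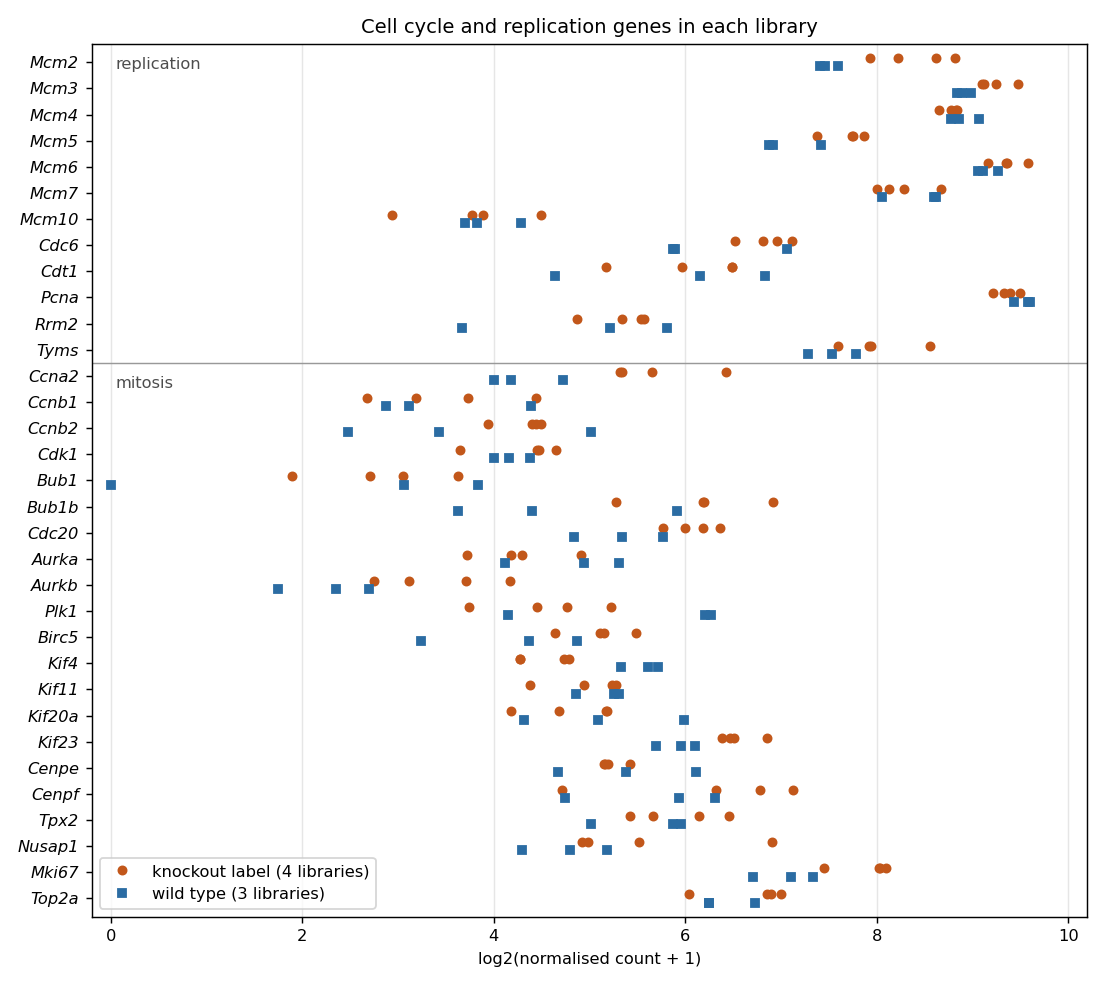
Values of the 33 members in each library, as log2 of the normalised count plus 1, with 4 knockout-labelled libraries as circles and 3 wild-type libraries as squares. Replication genes stand mostly to the right of mitosis genes, and the groups do not overlap for Mcm2, Mcm3, Ccna2, Cdc20, Aurkb, Kif23 and Mki67, which were higher under the knockout label, and for Kif4, which was lower.

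The 3 calls depended on the model and on single libraries. No member was called by limma with equal totals (4 higher and 3 lower at an unadjusted p under 0.05), without a mean-variance trend (7 higher and 1 lower) or with a covariate for receptor genes (5 higher and 0 lower). The count of members called was also 0 when wild-type library 1, wild-type library 2 or knockout-labelled library 1 was left out, while the estimates of Mcm2, Ccna2 and Mki67 stayed above 0 in every alternative run.

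The replicative helicase is a ring of 6 subunits, Mcm2 to Mcm7. Mcm2 had 450.4, 392, 297 and 243 normalised counts in knockout-labelled libraries, against 192, 175 and 169 in wild type. All 4 knockout-labelled values lay above all 3 wild-type values, and they were spread widely, with library 1 at the top and library 4 at the bottom. The means were 346 ± 93.2 (SD, n = 4) in knockout-labelled libraries and 179 ± 12.3 (SD, n = 3) in wild type. The log2 fold change was 0.91 (SE 0.22, with a 95% interval of 0.44 to 1.38 and an adjusted p = 0.0250 in limma). Over 16 alternatives the estimate ran from 0.69 to 1.07 and was called in 9, with adjusted p from 0.0218 to 0.996.

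The other 5 subunits did not pass the test. Mcm5 had 213, 232, 164 and 215 normalised counts in knockout-labelled libraries, against 116, 120 and 170 in wild type, and the groups overlapped (log2 fold change 0.61, SE 0.22, adjusted p = 0.0803 in limma). Mcm3 had 607, 546, 557 and 710.2 in knockout-labelled libraries, against 472, 506 and 458 in wild type. For Mcm3 the groups did not overlap, but the change was 0.33 (SE 0.15, adjusted p = 0.148 in limma). Mcm6 had 571 to 762 in knockout-labelled libraries and 531 to 614 in wild type, a log2 fold change of 0.22 (SE 0.15). Mcm4 (-0.13, SE 0.15) and Mcm7 (-0.15, SE 0.21) had estimates below 0, with intervals of -0.45 to 0.20 and of -0.60 to 0.29. The 6 subunits thus gave estimates on both sides of 0, although their proteins act as 1 ring.

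Set against its partners, Mcm2 stood higher in every knockout-labelled library. The ratio of Mcm2 to the mean of the other 5 subunits, chosen after the values were seen, was 1.10, 0.817, 0.701 and 0.524 in knockout-labelled libraries, against 0.487, 0.416 and 0.434 in wild type. This ratio is free of library scaling, but it was built on a gene already called. Per kilobase of annotated exon, the mean levels of Mcm2 were 49.7 in knockout-labelled libraries and 25.7 in wild type, those of Mcm5 51.6 and 33.9, and those of Mcm7 70.7 and 78.7 in the same order of groups. Mcm3, Mcm4 and Mcm6 stood above these in both groups, at 161, 122 and 141 in knockout-labelled libraries and at 128, 133 and 121 in wild type.

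The factors that load the helicase did not pass the test. Cdc6 had 90.5, 111, 123 and 137 normalised counts in knockout-labelled libraries, against 57.4, 133 and 58.6 in wild type. Wild-type library 2 lay within the knockout-labelled range and libraries 1 and 3 below it (log2 fold change 0.57, SE 0.32, adjusted p = 0.224 in limma). Cdt1, the partner of Cdc6, ran from 35.1 to 88.8 in knockout-labelled libraries and from 23.9 to 113 in wild type, a log2 fold change of 0.15 (SE 0.48). Mcm10, which helps to start the loaded helicase, ran from 6.65 to 21.5 and from 12 to 18.5 in the same order of groups (-0.16, SE 0.58, 95% interval -1.41 to 1.09). The interval of Mcm10 allows a change of more than 1 log2 unit in either direction.

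Pcna, the sliding clamp, had the smallest SE of the tested members. It had 670.2, 721, 592 and 642 normalised counts in knockout-labelled libraries, against 690 (wild-type library 1), 774 and 761 in wild type. Its log2 fold change was -0.18 (SE 0.14, 95% interval -0.48 to 0.12, adjusted p = 0.391 in limma), so a fall below -0.48 and a rise above 0.12 lay outside the interval. Tyms, which makes thymidylate, ran from 193 to 375 in knockout-labelled libraries and from 155 to 219 in wild type (0.47, SE 0.23, adjusted p = 0.179 in limma). Rrm2, the small subunit of ribonucleotide reductase, ran from 28.3 to 46.4 and from 11.7 to 55.2 in the same order of groups (0.43, SE 0.49). Of the 12 replication members 1 rose, 11 did not pass and 8 had estimates above 0, with a median of 0.27.

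Among the cyclins that drive mitosis, cyclin A2 was called and the B cyclins were not, and the difference between them was not tested. Ccna2 had 38.8, 39.5, 49.2 and 85.0 normalised counts in knockout-labelled libraries, against 25.5, 15.1 and 17.1 in wild type. The groups did not overlap, and knockout-labelled library 4 was the highest. The means were 53.1 ± 21.8 (SD, n = 4) in knockout-labelled libraries and 19.2 ± 5.51 (SD, n = 3) in wild type. The log2 fold change was 1.38 (SE 0.42, with a 95% interval of 0.49 to 2.27 and an adjusted p = 0.0476 in limma). The call lay just under the threshold, and it was kept in 3 of 15 alternatives, in which the estimate ran from 1.13 to 1.91 and the adjusted p from 0.0215 to 0.996.

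Ccnb1, cyclin B1, had 20.8, 5.37, 12.3 and 8.1 normalised counts in knockout-labelled libraries, against 19.9, 7.67 and 6.32 in wild type. The groups overlapped fully, and library 1 was the highest in each (log2 fold change 0.05, SE 0.69, 95% interval -1.44 to 1.53). Ccnb2 ran from 14.3 to 21.6 in knockout-labelled libraries and from 4.59 to 31.4 in wild type (0.68, SE 0.63). Cdk1, the kinase these cyclins activate, ran from 11.5 to 24.2 and from 15.1 to 19.8 in the same order of groups (0.13, SE 0.49). The estimates of Ccnb1 and Cdk1 turned negative with equal totals.

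Mki67 encodes the chromosome surface protein Ki-67, a marker of cycling cells. It had 261, 272, 174 and 259.7 normalised counts in knockout-labelled libraries, against 160.4, 137 and 103 in wild type. All knockout-labelled values lay above all wild-type values, with library 3 lowest. The means were 242 ± 45.4 (SD, n = 4) in knockout-labelled libraries and 133 ± 28.7 (SD, n = 3) in wild type. The log2 fold change was 0.85 (SE 0.23, with a 95% interval of 0.36 to 1.35 and an adjusted p = 0.0348 in limma). It was called in 5 of 16 alternatives, with estimates of 0.63 to 1.10 and adjusted p from 0.0227 to 0.996. Top2a, the topoisomerase that untangles sister chromatids, ran from 64.7 to 127 in knockout-labelled libraries and from 75.0 to 105 in wild type, and did not pass (0.29, SE 0.29, adjusted p = 0.511 in limma).

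**Figure D2:**
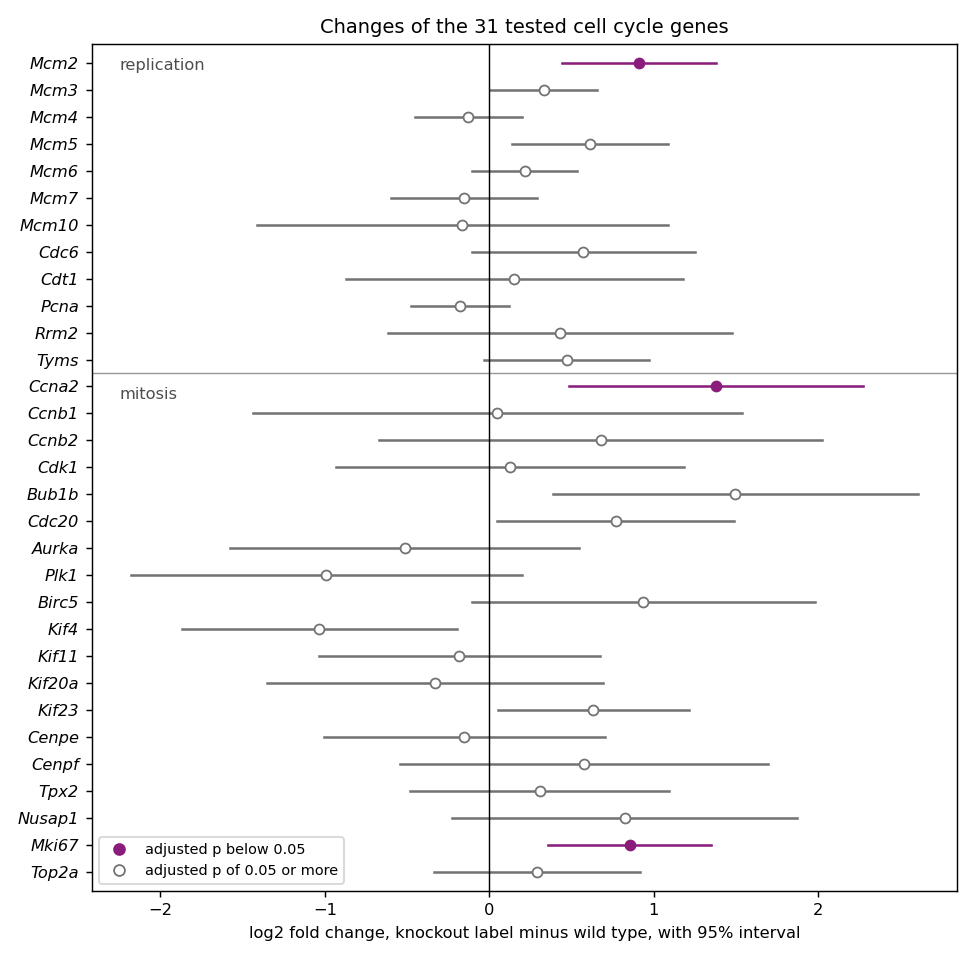
Log2 fold change, knockout label minus wild type, of the 31 tested members with 95% intervals from limma. Filled points mark Mcm2 (0.91), Ccna2 (1.38) and Mki67 (0.85), the members with an adjusted p below 0.05, and the median SE is 0.48 over the tested mitosis genes and 0.22 over the replication genes, with wide and narrow intervals on both sides.

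The checkpoint genes did not pass the test. Bub1b, which encodes the checkpoint protein BubR1, had 120, 37.7, 72.3 and 71.8 normalised counts in knockout-labelled libraries, against 59.2, 11.4 and 20.1 in wild type. Wild-type library 1 lay within the knockout-labelled range and the other two below it, and the estimate was the largest among tested members (log2 fold change 1.5, SE 0.52, adjusted p = 0.0720 in limma). Cdc20, the activator of the anaphase-promoting complex, had 53.6, 71.8, 63.0 and 81.1 in knockout-labelled libraries, against 53.3, 27.6 and 39.4 in wild type. The groups were parted by a margin of under 1 normalised count (0.77, SE 0.34, adjusted p = 0.133 in limma). Bub1, a checkpoint kinase, was too low to test, at 2.70 to 11.3 in knockout-labelled libraries and 0 to 13.3 in wild type.

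Of the mitotic kinases and survivin, none passed the test. Plk1, Polo-like kinase 1, had 26.2, 36.5, 20.9 and 12.3 normalised counts in knockout-labelled libraries, against 72.6, 76.0 and 16.7 in wild type. Wild-type libraries 1 and 2 lay above every knockout-labelled value and library 3 among them (log2 fold change -0.99, SE 0.55, adjusted p = 0.227 in limma). Without wild-type library 3 Plk1 was called lower, at -1.69 (SE 0.50, adjusted p = 0.0496 in limma). Aurka, the centrosomal Aurora kinase, ran from 12.2 to 29.0 in knockout-labelled libraries and from 16.4 to 38.7 in wild type (-0.52, SE 0.50). Birc5, or survivin, a partner of Aurora B, ran from 23.9 to 43.7 and from 8.45 to 28.1 in the same order of groups (0.94, SE 0.49, adjusted p = 0.195 in limma). Aurkb itself was too low to test, at 7.69, 12.1, 17.0 and 5.74 in knockout-labelled libraries against 4.11, 2.36 and 5.5 in wild type.

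The kinesins split in direction, and none passed the test. Kif4, a kinesin of chromosome arms and the spindle midzone, had 18.3, 26.6, 18.4 and 25.6 normalised counts in knockout-labelled libraries, against 51.7, 39.2 and 47.7 in wild type. All knockout-labelled values lay below all wild-type values (log2 fold change -1.03, SE 0.39, 95% interval -1.87 to -0.20, adjusted p = 0.0908 in limma). Kif23, a kinesin of the midzone needed for cytokinesis, had 87.5, 89.8, 82.4 and 115 in knockout-labelled libraries, against 61.0, 67.8 and 51.0 in wild type. Here all knockout-labelled values lay above all wild-type values (0.63, SE 0.27, adjusted p = 0.126 in limma). Both estimates kept their sign in every alternative run, and neither was called in any. Kif11, which pushes the spindle poles apart, was at 19.8 to 37.7 in knockout-labelled libraries and 27.9 to 38.5 in wild type (-0.18, SE 0.40). Kif20a, another cytokinesis kinesin, was at 17.1 to 35.3 and 18.9 to 62.5 in the same order of groups (-0.33, SE 0.48).

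Of the kinetochore and spindle genes, Cenpe, a kinetochore motor, ran from 34.6 to 41.8 normalised counts in knockout-labelled libraries and from 24.4 to 68.2 in wild type (log2 fold change -0.15, SE 0.40). Cenpf, a large kinetochore protein, ran from 25.3 to 139 in knockout-labelled libraries and from 25.7 to 78.1 in wild type (0.58, SE 0.52). Tpx2, which activates Aurora A on the spindle, ran from 41.8 to 87.0 and from 31.4 to 61.2 in the same order of groups (0.31, SE 0.37). Nusap1, a spindle microtubule binder, had 44.7, 29.3, 30.7 and 119 in knockout-labelled libraries, against 35.4, 26.7 and 18.7 in wild type, with knockout-labelled library 4 the highest (0.82, SE 0.49, adjusted p = 0.256 in limma). Of the 21 mitosis members 19 were tested, 2 rose, 17 did not pass, and 13 had estimates above 0, with a median of 0.31.

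Groups without overlap were counted over the 31 tested members. Among these, 6 members lay wholly above wild type (19.4%) and 1 wholly below (3.23%), against 14.7% and 14.1% of all tested genes. The 6 were Mcm2, Mcm3, Ccna2, Cdc20, Kif23 and Mki67, and the 1 was Kif4. The members also differ from all genes in level, which bears on these shares. Among tested genes with a mean of 10 to 100, 0.794% rose, 8.17% fell and the median log2 fold change was -0.58. The 21 members at that level had a median of 0.29, with 1 that rose and 0 that fell. Among genes with a mean of 100 to 1000, 7.19% rose, 3.73% fell and the median was 0.16, and the 10 members at that level had a median of 0.40, with 2 that rose and 0 that fell. Both classes were cut on the mean over all libraries. They can therefore hold genes that reached the filter through 1 group alone, which no tested member did. The members and these genes are thus not matched, and the gap between their medians was not tested.

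Exonic length was set beside the changes, as shorter transcripts stood higher in the knockout-labelled libraries than longer ones. Among protein-coding genes with a mean under 1000 the median log2 fold change was 0.27 below 3000 exonic bases, 0.08 from 3000 to 6000 and -0.06 from 6000 upward. The medians of the members, in the same order of lengths, were 0.13 for 6 members, 0.26 for 16 and 0.47 for 9. The median SE of the tested members was 0.40, and whether their changes go with length was not tested. The called members were 6956 (Mcm2), 4083 (Ccna2) and 10061 (Mki67) bases long.

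Replication and mitosis genes were then compared as groups. The mean log2 value of the 12 replication genes was 7.62, 7.59, 7.52 and 7.62 in knockout-labelled libraries 1 to 4, against 7.34, 7.56 and 7.10 in wild-type libraries 1 to 3. That of the 21 mitosis genes was 5.21, 5.07, 5.09 and 5.32 in knockout-labelled libraries, against 5.30, 4.65 and 4.51 in wild type. On both means the groups overlapped, through wild-type library 2 for replication and wild-type library 1 for mitosis.

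The replication mean minus the mitosis mean was 2.40, 2.52, 2.44 and 2.30 in knockout-labelled libraries, against 2.05, 2.91 and 2.59 in wild type. All 4 knockout-labelled values lay inside the wild-type range, and their SD was 0.0942, against 0.436 in wild type. The mean of the difference was 2.42 in knockout-labelled libraries and 2.51 in wild type, a gap of -0.10 that was smaller than the SD within wild type. The gap depended on the processing, at -0.42 over members with a mean of at least 50, -0.51 with quantile normalization, -0.33 without wild-type library 1 and 0.10 without wild-type library 2. As a share of all normalised counts, the replication genes took 0.0247% ± 0.00145 (SD, n = 4) in knockout-labelled libraries and 0.0257% ± 0.00164 (SD, n = 3) in wild type. The mitosis genes took 0.00733% ± 0.000917 (SD, n = 4) and 0.00644% ± 0.00192 (SD, n = 3), in the same order of groups, and both shares overlapped.

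**Figure D3:**
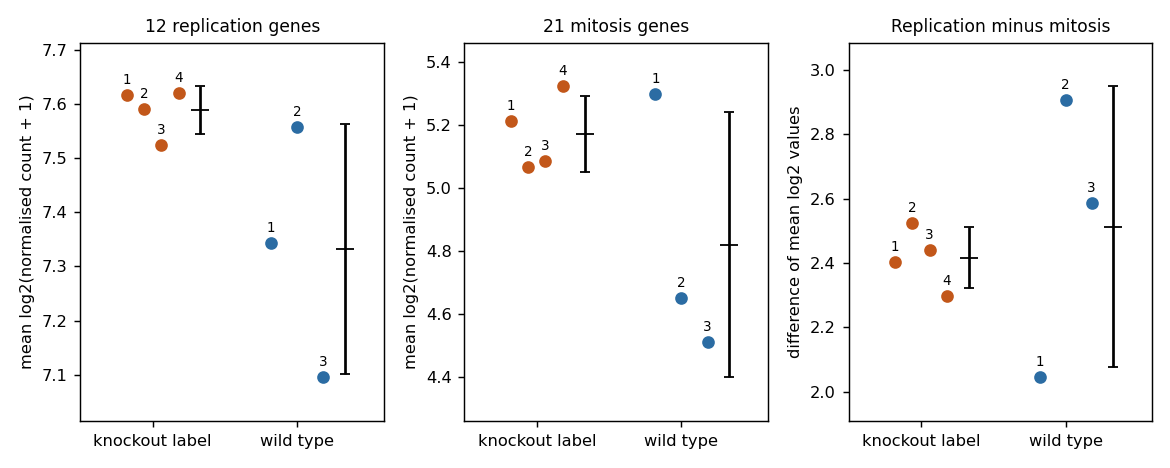
Mean log2 of the normalised count plus 1 over the 12 replication genes and the 21 mitosis genes, and their difference, with 1 point a library, numbered by replicate, and bars for the mean and SD of each group. The 4 knockout-labelled libraries lie close together in all 3 panels, while the 3 wild-type libraries spread more widely, with wild-type library 2 (replication) and wild-type library 1 (mitosis) inside the knockout-labelled range and the others below it, and with the difference of means on both sides of the knockout-labelled values.

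The other genes of the cell cycle, 130 in 5 lists, gave 3 that rose (2.48%) and 2 that fell (1.65%) among 121 tested, against 5.98% and 5.53% of all tested genes, with a median of 0.19. At a mean of 10 to 100, where many of the mitosis genes lie, 0.794% of all tested genes rose and 8.17% fell. That class can hold genes that reached the filter through 1 group alone. Of the 121 tested here, 117 had a mean of at least 10 in each group. Of 43 other replication genes, all tested, 0 rose, 1 fell and 42 did not pass, with a median of 0.08 (5 higher and 3 lower at an unadjusted p under 0.05 in limma). The gene that fell was Tk1, the thymidine kinase that salvages thymidine for DNA synthesis. Tk1 had 78.2, 43.1, 63.1 and 66.1 normalised counts in knockout-labelled libraries, against 175 (wild-type library 1), 160 and 97.9 in wild type. The groups did not overlap, and the log2 fold change was -1.18 (SE 0.30, adjusted p = 0.0287 in limma). Tyms, which supplies thymidylate by synthesis rather than salvage, had an estimate above 0, as given above.

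Of 51 other mitosis genes 45 were tested and 0 passed in limma in either direction, with 2 higher and 0 lower at an unadjusted p under 0.05 and a median of 0.19. The tested genes of highest level among them were Smc4, a condensin subunit, at 604 ± 44.8 (SD, n = 4) in knockout-labelled libraries and 757 ± 181 (SD, n = 3) in wild type (log2 fold change -0.30, SE 0.17), and Ube2s, which extends ubiquitin chains for the anaphase-promoting complex, at 575 ± 158 and 467 ± 43.5 in the same order of groups (0.27, SE 0.19).

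Regulators of entry into the cycle were read next. Of 11 tested G1 cyclins, Cdks and pocket proteins 1 rose and 10 did not pass. It was Ccnd1, cyclin D1, which starts the passage through G1 phase, with 2261, 1815, 2331 and 2821 normalised counts in knockout-labelled libraries, against 1092, 1394 and 1549 in wild type. The groups did not overlap (log2 fold change 0.78, SE 0.16, adjusted p = 0.0174 in limma). Ccnd2 stood at 4136 ± 407 (SD, n = 4) in knockout-labelled libraries and 3914 ± 878 (SD, n = 3) in wild type (0.10, SE 0.15), Ccnd3 had an estimate of 0.31 (SE 0.15, adjusted p = 0.180 in limma), and Ccne2 one of 0.13 (SE 0.43). Ccne1 was under the filter.

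Of 17 factors of the E2F, Myb and Foxm1 group 1 rose, 1 fell and 15 did not pass. Tfdp1, the partner with which E2F factors bind DNA, had 538, 404, 459 and 452 normalised counts in knockout-labelled libraries, against 250.04, 275 and 304 in wild type (log2 fold change 0.74, SE 0.17, adjusted p = 0.0200 in limma). E2f7, an atypical E2F that represses transcription, had 188, 109, 228 and 182 in knockout-labelled libraries, against 350.0, 283 and 289 in wild type (-0.84, SE 0.24, adjusted p = 0.0415 in limma). For both genes the groups did not overlap.

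The inhibitors of cyclin-dependent kinases, which hold cells out of the cycle, gave 1 call. Of 5 tested, 1 rose and 4 did not pass. Cdkn1c, which encodes p57, had 2475, 1289, 1958 and 1934 normalised counts in knockout-labelled libraries, against 811, 1245 and 1043 in wild type. The groups did not overlap, though knockout-labelled library 2 came close to wild-type library 2 (log2 fold change 0.87, SE 0.20, adjusted p = 0.0216 in limma). Cdkn1b, which encodes p27, was at 1910 ± 70.8 (SD, n = 4) in knockout-labelled libraries and 1516 ± 162 (SD, n = 3) in wild type (0.34, SE 0.12, adjusted p = 0.0840 in limma). Cdkn1a, the p53 target that encodes p21, was at 704 ± 136 and 874 ± 138 in the same order of groups (-0.32, SE 0.17, adjusted p = 0.210 in limma). Cdkn2c had an estimate of 0.91 (SE 0.30, adjusted p = 0.0591 in limma) and Cdkn2d one of 0.31 (SE 0.23), while Cdkn2a and Cdkn2b were under the filter. Cyclin D1, Tfdp1 and the inhibitor Cdkn1c were thus called higher in the same comparison of groups as Mcm2, Ccna2 and Mki67. Whether these genes varied together from library to library was not tested. Without wild-type library 1, without the trend and with the receptor covariate, Tk1, Ccnd1, Tfdp1, E2f7 and Cdkn1c all lost their calls, and each kept its direction.

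**Figure D4:**
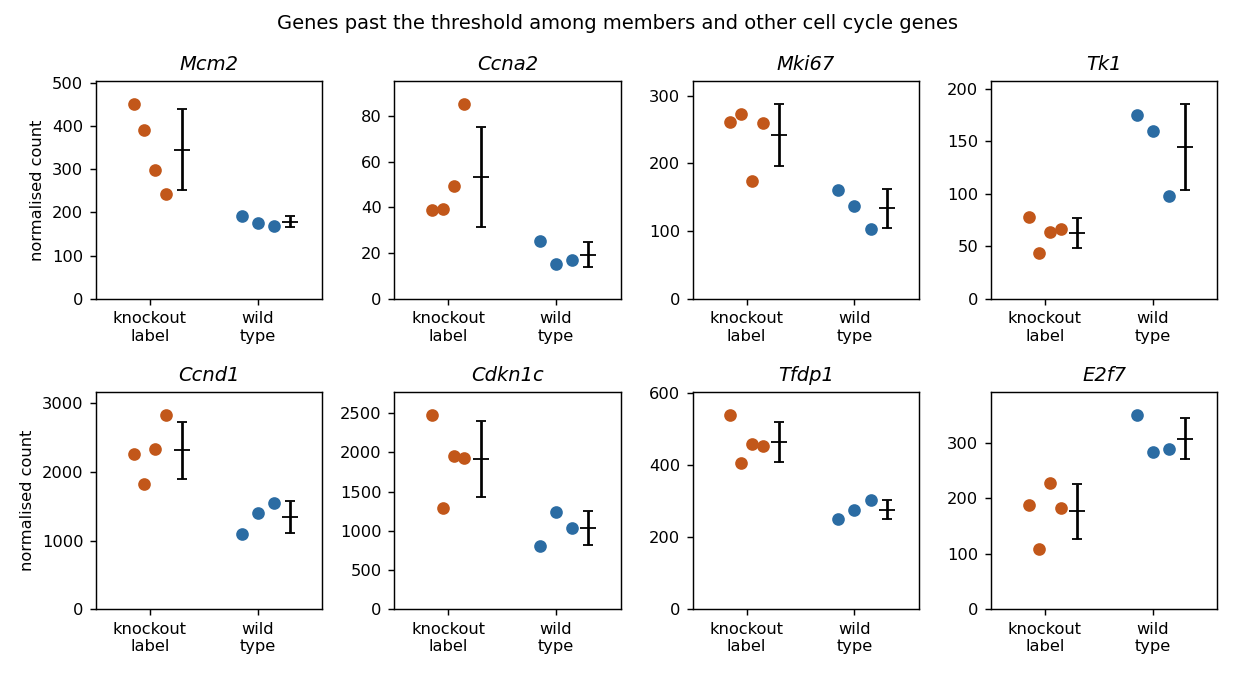
Normalised counts of the 3 called members and the 5 other called cell cycle genes, 1 point a library, with bars for the mean and SD, knockout label (n = 4) left of wild type (n = 3). Mcm2, Ccna2, Mki67, Ccnd1, Cdkn1c and Tfdp1 lie higher and Tk1 and E2f7 lower under the knockout label, with no overlap in any of the 8 panels.

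Other cells in the preparation also carry cell cycle transcripts, and markers of several differed between the groups. The summed markers of mural cells were 61171 to 69405 normalised counts in knockout-labelled libraries and 36667 to 48478 in wild type, with 4 of 7 genes called higher. The 4 were Acta2, Myh11, Tagln and Cnn1. Pdgfrb (log2 fold change 0.06, SE 0.16), Rgs5 (-0.02, SE 0.23) and Cspg4 (0.39, SE 0.13) were not called, so the list did not move as 1. The summed markers of fibroadipogenic progenitors were 15746 to 18375 and 6507 to 10945 in the same order of groups (4 of 7 higher). Those called were Ly6a, Col1a1, Col3a1 and Gsn. Dcn (0.68, SE 0.22) and Lum (0.66, SE 0.44) were not called, nor was Pdgfra, with an estimate below 0 (-0.32, SE 0.32). The sums of Schwann cell markers were 20059 to 27501 and 11042 to 14762 (3 of 5 higher). Those of satellite cell markers were 2577 to 2867 and 1754 to 2233 (3 of 6 higher), in the same order of groups. Pax7, Myod1 and Cdh15 were called, and Vcam1, Myf5 and Chodl were not. Much of this sum was Vcam1, at 1638 to 2054 and 1363 to 1624 in that order. Myod1 ran from 14.4 to 57.4 in knockout-labelled libraries and from 0 to 2.73 in wild type. It reached the filter through the knockout-labelled libraries alone. Erythroid markers overlapped, at 4399 to 20257 and 1757 to 5508, with 5 genes tested and 5 called higher. Macrophage markers overlapped at 271 to 440.5 and 217 to 286 (6 of 10 genes tested, 1 higher), and muscle fibre markers at 447 to 666 and 272 to 621 (0 of 8 called). The macrophage gene called was Lyz2, at 153 to 275 and 50.4 to 84.2. C1qa, C1qb and C1qc also lay wholly above wild type, at low values. Cd68 lay wholly below it without a call, at 21.6 to 40.2 and 45.6 to 98.8. Adgre1, Csf1r, Mrc1, Cd163 and Fcgr1 overlapped. The summed lymphocyte markers were lower, at 47.6 to 66.0 and 103 to 256 (2 of 8 genes tested, 1 lower). Much of this sum was Cd3d, the 1 called lower, at 26.3 to 42.0 in knockout-labelled libraries and 74.9 to 177 in wild type. Cd79a did not pass (log2 fold change -0.96, SE 0.79), and Cd3e and Nkg7 were under 10 in every library. Neutrophil markers were at 23.3 to 189 and 33.9 to 39.9 (1 of 6 genes tested, 0 called), with Ly6g, Elane and Retnlg under 10 in every library. No marker of these lists was at 0 in all 7 libraries. The part of these cells in the values of the members was not tested.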

How the data were processed

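The deposited tables, 1 for each library, hold normalised counts that the authors made, read here as a signal per gene. Per the labels' protocols, RNA was extracted with an RNeasy Plus kit and 10 ng was used with a Takara Clontech PicoMammalian v2 kit. GRCm39, DESeq, DESeq2, featureCounts and kallisto are named, without role or version, per the submitters' processing notes. The values were not whole and whole reads were not recovered, so no count test was run. The smallest value repeated at least 20 times in a library was taken as about 1 read, and the total divided by it as the estimated reads. Intervals from counting are not given, since depth is known only as this estimate.

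A pseudocount of 1 was added before taking log2, so fold changes of low genes are understated, and the fit used limma 3.58.1 in R 4.3.3 (lmFit, eBayes with trend) over the 16931 of 30899 genes with a mean of at least 10. P-values were adjusted by Benjamini-Hochberg over all of them, with a threshold of 0.05. Fold changes are knockout label minus wild type, and intervals are 95%. The fit was also run on simulated data. These had the spread of the knockout-labelled libraries in both groups and no difference in depth. The run therefore does not bear on a wider spread in wild type or on the depth difference. Exonic length is the union of exons in GENCODE M21, of the older build GRCm38, which matched 33 of 33 members. Overlapping and antisense genes may share reads, and no source used here says whether strand was counted. The members and lists were chosen with earlier results of these data known, so no p over the list and no set test is given. Named were all members, Slc2a1, up to 4 called genes in each direction of each list or its 2 of highest level, and the tested CDK inhibitors and G1 cyclins. Replicate numbers are shared between groups, and the fit with them as a block was an alternative. The other alternatives were equal totals, quantile normalization, pseudocounts of 0.5 and 5, a minimum mean of 50 or none, no trend, a covariate for olfactory and vomeronasal receptor genes, and each library left out; members with a mean of at least 10 alone were added for the replication minus mitosis gap after seeing the data.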

Additional observations from a re-analysis of the deposited data

Results flagged for a closer look

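In the knockout-labelled group of 4 libraries, Mki67 in library 3 stood apart at 174 normalised counts, below the other three at 261, 272 and 259.7. Cenpe in library 2 stood apart at 41.8 normalised counts, above 35.6, 34.8 and 34.6 in libraries 1, 3 and 4. These were 2 of 48 genes examined for a library far from the rest of its group, and chance flags about 1 in 20 such groups.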

How the results depend on the processing

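The counts of called members (3 higher, 0 lower) and of called other cell cycle genes (3 higher, 2 lower) stayed within 1.5 times of these under both pseudocounts, while with no filter, a minimum mean of 50 or quantile normalization 2 members were called higher. Members called higher were 0 with equal totals, limma without trend, the receptor covariate and the replicate block. Other cell cycle genes called were 0 in each direction without trend, with the covariate and with the block, and 4 were called lower with equal totals (the median over all tested genes was then -0.21, against 0.02). Over all genes 0 were called higher and 17 lower without trend, 35 higher and 84 lower with the block, and 0 with the covariate, with 749 there at an unadjusted p under 0.05. The covariate, 1.36 to 1.73 on the log2 scale in knockout-labelled libraries and 2.12 to 3.19 in wild type, separates the groups. Same-numbered libraries did not deviate together (correlations of -0.0806, -0.0480 and -0.125), so the block pairs by number alone. The members' median log2 fold change of 0.31 was 0.47 with a mean of at least 50, 0.58 with quantile normalization and 0.084 with equal totals. The replication minus mitosis gap of -0.10 was -0.42 with a mean of at least 50 and -0.51 with quantile normalization.

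With 1 library left out, members called ran from 0 to 2 higher and 0 to 1 lower, other cell cycle genes from 0 to 5 higher and 0 to 3 lower, the members' median from 0.21 to 0.44, and the replication minus mitosis gap from -0.33 to 0.10. Among genes that were not called, the estimate changed sign as follows. With equal totals: Ccnb1 -0.16, Cdk1 -0.087, Mcm6 -0.010, Cdt1 -0.069, Ccnd2 -0.13, Ccne2 -0.090. With quantile normalization: Aurka 0.10, Cenpe 0.21, Kif11 0.33, Kif20a 0.17, Mcm10 0.61, Ccnd2 -0.044. With the receptor covariate: Cdk1 -0.084, Plk1 0.22, Cenpe 0.75, Mcm7 0.21, Tyms -0.0028, Mcm10 0.41, Smc4 0.11, Ube2s -0.011. With the replicate block: Mcm10 0.12, Cdt1 -0.00039. With 1 library left out, the ranges were Ccnb1 -0.24 to 0.51, Cenpe -0.51 to 0.21, Kif11 -0.32 to 0.011, Kif20a -0.74 to 0.10, Rrm2 -0.18 to 0.89, Mcm10 -0.40 to 0.12, Cdt1 -0.47 to 0.63, Slc2a1 -0.24 to 0.023, Ccnd2 -0.060 to 0.26, Ccne2 -0.13 to 0.54. The cause of these shifts was not tested. At a mean of 10 to 100 the median SE on the log2 scale was 0.49 over 3 replication members and 0.48 over 18 mitosis members, against 0.21 over the 10 members with a mean of 100 to 1000.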
